A study of Mus musculus with 3 samples.

Results

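Cycling nuclei were examined in single-nucleus RNA sequencing of lumbar (L3-L5) dorsal root ganglia (DRG) of C57BL/6 mice. A nucleus counted as cycling when it held 3 or more transcripts, counted as unique molecular identifiers (UMIs), of the 5 proliferation genes Mki67, Top2a, Cenpf, Kif11 and Bub1. These had to come from 2 or more of the genes and to sum to at least 2 times the UMIs of Snap25, Scn9a, Prx and Bcan, which mark neurons and glia. Of 19259 barcodes with more than 1000 genes, taken as nuclei, 154 met this rule. By the labels, the adult group was 1 library from mice of 3 months and the aged group was 2 libraries from mice of 21 months, all wild-type, and the labels name no transgene or treatment. The age of the aged group follows the sample labels, from which the design text of the series departs. The number of mice pooled in a library is not stated, so each library was taken as 1 replicate.

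A dividing cell passes through the S phase, in which the genome is copied, and then through mitosis, in which condensed chromosomes are pulled apart by the spindle. The adult ganglion holds sensory neurons, which do not divide, and glia, vessels and fibroblasts that divide rarely. Erythroblasts and the precursors of granulocytes and B cells, in contrast, divide rapidly, and in the adult mouse they do so in bone marrow and spleen. A maturing erythroblast makes heme and globin and builds the membrane skeleton of the red cell before it expels its nucleus.

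Library totals, in the order adult, aged replicate 1 and aged replicate 2, were 167664164, 95647106 and 69045987 UMIs, with 11518, 5130 and 2611 kept nuclei. Values of 3 libraries are given in this order throughout. The adult and each aged library shared 1 barcode among kept nuclei, the aged libraries shared none, and no barcode of a cycling nucleus was shared. All libraries are labelled male, and their levels of Xist and of 3 of 4 Y-linked genes went against that label. Xist, the RNA that coats the inactive X chromosome of females, stood at 1409, 837 and 916 CPM (UMIs scaled to a sum of 1000000 over all genes) in the nuclei that were not cycling, whereas the Y-linked genes Uty, Kdm5d and Eif2s3y stood at 2.73 or below. Another Y-linked gene, Ddx3y, stood at 20.6, 13.2 and 7.88 CPM, with a UMI in 12.9, 12.2 and 9.64% of these nuclei. The cycling nuclei held 671, 657 and 789 UMIs of Xist, 0 of Uty in each library and 1, 6 and 2 of Ddx3y.

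Cycling nuclei made up 0.330% (38 of 11518) of the adult nuclei, 0.916% (47 of 5130) of those of aged replicate 1 and 2.64% (69 of 2611) of those of aged replicate 2. The exact 95% confidence intervals, which cover counting error only, ran from 0.234 to 0.453%, 0.674 to 1.22% and 2.06 to 3.33%, and did not overlap. Both aged libraries lay on the same side of the adult library but also differed from each other, with a mean of 1.78% ± 1.22 (SD, n = 2). This mean was 5.39 times the adult share. Permuting the library labels exactly (two-sided) gave p = 0.667, and the smallest p that 3 libraries allow is 0.333. When every nucleus was thinned to 2000 UMIs and shallower nuclei (2009, 813 and 333) were left out, the shares were 0.231, 0.764 and 2.02%, in the same order. Where the ratio rested on 1 aged library, it was 2.78 without aged replicate 2 and 8.01 without aged replicate 1.

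**Figure D1:**
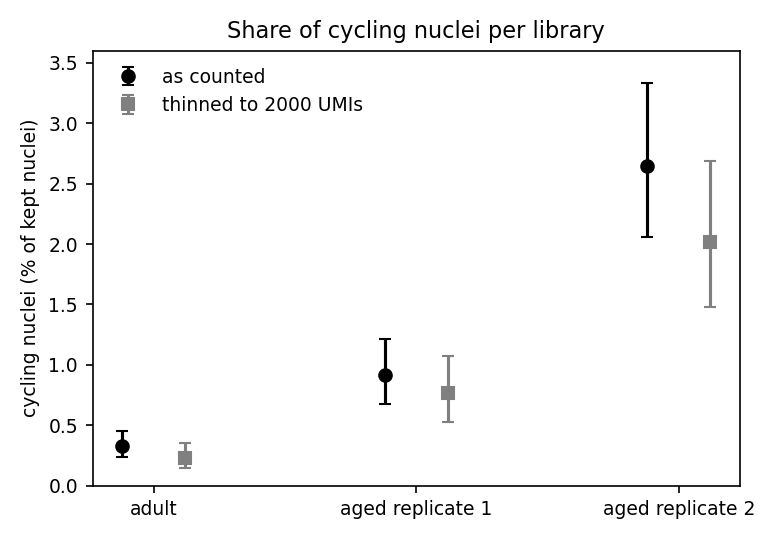
Share of kept nuclei that were cycling (%, y axis) in each library (x axis), as counted (black circles) and after thinning each nucleus to 2000 UMIs (grey squares), with exact 95% intervals for counting error as bars. The adult share of 0.330% lay below 0.916 and 2.64% in the aged libraries, and the order was the same after thinning.

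The cycling genes that chose the nuclei were carried well above the minimum in most of them. The 5 genes summed to a median of 10.5 UMIs (range 4 to 40), 22 (3 to 60) and 18 (3 to 75) per cycling nucleus. Just inside the rule, 0, 4 and 3 nuclei held 3 UMIs, and just outside it 4, 3 and 4 nuclei held 2 UMIs from 2 genes. Another 26, 33 and 23 nuclei had enough UMIs of the 5 genes but too many of the neuronal and glial genes. Mki67, a protein of the surface of mitotic chromosomes, stood at 1090, 1176 and 1731 CPM in the summed cycling nuclei, and at 2.08, 4.46 and 4.58 in all others. Top2a, which untangles copied DNA, stood at 1308, 1228 and 1841 CPM. The kinetochore protein Cenpf stood at 363, 310 and 592, the spindle motor Kif11 at 297, 415 and 620 and the checkpoint kinase Bub1 at 99.1, 68.6 and 123. Cycling nuclei held a median of 2673, 3436 and 3298 UMIs, below the 3271, 4321 and 4975.5 of the other nuclei. In aged replicate 1 a single nucleus with macrophage markers and 91534 UMIs supplied 29.9% of all UMIs in the cycling sum, which is named below wherever it decides a value.

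The letters CCAAT or their reverse complement lie upstream of all 5 genes, and in the longer windows described below they are in 41.1% of all genes. The 200 bases before the start sites of the 5 genes are shown, from RefSeq on GRCm38.p6. They are given because the genes were used together to choose the nuclei. Mki67 lies on the minus strand (chr7:135716380-135716579), as do Top2a (chr11:99024190-99024389), Cenpf (chr1:189688087-189688286) and Bub1 (chr2:127831860-127832059), and Kif11 lies on the plus strand (chr19:37376182-37376381). Capitals mark the CCAAT box (CCAAT or its reverse complement ATTGG) and the cell cycle homology region, or CHR (TTTGAA or TTCAAA), an element known from promoters of mitotic genes.
Mki67: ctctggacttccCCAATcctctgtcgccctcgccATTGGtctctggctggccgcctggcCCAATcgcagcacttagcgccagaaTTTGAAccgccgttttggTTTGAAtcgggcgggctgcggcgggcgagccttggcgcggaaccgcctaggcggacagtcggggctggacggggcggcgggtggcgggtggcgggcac
Top2a: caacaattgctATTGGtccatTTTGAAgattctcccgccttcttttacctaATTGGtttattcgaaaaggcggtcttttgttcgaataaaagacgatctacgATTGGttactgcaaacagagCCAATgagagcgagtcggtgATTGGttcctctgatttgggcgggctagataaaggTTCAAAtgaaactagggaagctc
Cenpf: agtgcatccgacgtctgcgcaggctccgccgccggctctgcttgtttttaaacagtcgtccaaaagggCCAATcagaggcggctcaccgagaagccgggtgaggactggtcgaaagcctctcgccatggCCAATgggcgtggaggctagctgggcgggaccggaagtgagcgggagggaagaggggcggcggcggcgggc
Kif11: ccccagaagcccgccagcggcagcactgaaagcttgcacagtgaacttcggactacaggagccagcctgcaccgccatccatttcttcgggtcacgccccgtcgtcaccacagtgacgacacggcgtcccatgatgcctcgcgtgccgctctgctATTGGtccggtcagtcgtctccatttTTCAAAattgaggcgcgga
Bub1: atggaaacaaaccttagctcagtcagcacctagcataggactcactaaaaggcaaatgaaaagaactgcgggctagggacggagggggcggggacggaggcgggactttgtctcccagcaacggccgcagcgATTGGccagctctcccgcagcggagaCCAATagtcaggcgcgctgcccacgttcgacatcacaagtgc
Within the full window of 300 bases (250 before to 50 after the start), CCAAT was present in 5 of 5 genes and the CHR in 4 of 5. In Mki67 the CHR began 116 and 98 bases before the start, in Kif11 19 bases before it, and in Cenpf 3 bases past it. No match was present in this window of Bub1. The same letters were then counted over the cell cycle lists described next. The CHR was in 46 of 76 windows found for the other mitotic genes (60.5%), in 6 of 45 for the DNA replication genes (13.3%) and in 20.2% of all 27025 genes. An E2F motif (TTCCCGCC or its reverse complement GGCGGGAA) was in 11 of 45 replication genes (24.4%), in 3 of 76 mitotic genes and in 2.52% of all genes. CCAAT was in 54 of 76 mitotic genes (71.1%), in 27 of 45 replication genes (60.0%) and in 41.1% of all genes. These counts describe letters in a window and were not tested.

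Nuclei chosen by 5 proliferation genes held higher levels of most replication and mitosis genes. UMIs were summed per library over the cycling nuclei and over all other kept nuclei, and compared with the quasi-likelihood test of edgeR with the library as a block. Of 179 cell cycle genes outside the rule, 164 were higher in the cycling nuclei (91.6%), beside 11.9% of all 19370 genes tested that were called higher at an adjusted p under 0.05 (29.8% in either direction). The most similar nuclei were taken to be 900 other nuclei (323 adult, 340 and 237 aged) gated in the same way on the leukocyte genes Ptprc, Dock2, Ikzf1, Inpp5d and Cd53. Against these, 154 of 172 tested were higher (89.5%), beside 8.55% of 11180 genes. Both directions follow from how the nuclei were chosen, so that the counts describe the set and support nothing further. The median log2 fold change over all genes was -0.35 against all other nuclei and -0.07 against leukocytes. Fold changes are given as fitted. Of the genes called against all other nuclei 40.0% were higher, and 59.2% with library totals in place of TMM factors. Against leukocytes the share was 53.3%, and 63.9% by DESeq2.

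Genes that open the DNA for copying were higher against all other nuclei in 16 of 17 cases, with a median log2 fold change of 3.46. Cdc6, which loads the replicative helicase onto origins, stood at 59.4, 71.9 and 142 CPM in the cycling nuclei of the adult library and the aged replicates, and at 0.943, 1.21 and 1.42 in all others. The fold change on the log2 scale was 5.82 (SE 0.52, adjusted p = 1.26e-27, edgeR). All cycling sums lay above all others. The DNA synthesis list was higher in 20 of 20 genes (median 3.03). Rrm2, the ribonucleotide reductase subunit that supplies deoxynucleotides in S phase, stood at 66.0, 124 and 183 CPM, against 0.411, 0.702 and 0.509. Tk1, the thymidine kinase of S phase, was higher by 5.53 on the log2 scale. S-phase repair and chromatin genes were also higher in 20 of 20 (median 3.84), among them the checkpoint mediator Clspn (log2 fold change 7.19) and Uhrf1 (7.05), which passes DNA methylation to the new strand.

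Genes of mitosis followed the same order. Condensin subunits, which compact chromosomes, were higher in 8 of 8 (median 3.83), and Ncapg had a log2 fold change of 6.79. Kinetochore and checkpoint genes were higher in 25 of 26 (median 4.55). Knl1, the scaffold that recruits checkpoint proteins to kinetochores, stood at 383, 461 and 693 CPM, against 4.87, 3.51 and 2.68 in other nuclei (log2 fold change 6.73, SE 0.28, adjusted p = 5.86e-127, edgeR). The lowest cycling sum of Knl1 was far above the highest of the others. Spindle and cytokinesis genes were higher in 26 of 27 (median 5.32), with Aspm, a protein of spindle poles, at 7.25. Mitotic kinases and genes of the anaphase-promoting complex were higher in 27 of 28 (median 4.47), and the kinase Cdk1 that drives entry into mitosis had a log2 fold change of 7.51. In the summed cycling nuclei the ratio of replication to mitotic UMIs was 0.457, 0.404 and 0.408.

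Cyclins of G1 and inhibitors of cyclin-dependent kinases differed less uniformly. Ccne2, an S-phase entry cyclin, was higher against all other nuclei (log2 fold change 4.31) and against leukocytes (5.57). Of 8 G1 genes, 7 were higher against all other nuclei, beside 11.9% of all genes. Against leukocytes 4 were higher and 2 lower, beside 8.55 and 7.49%. Ccnd3, a D cyclin of many blood cells, stood at 608, 235 and 481 CPM in cycling nuclei and at 1060, 902 and 851 in the other leukocytes, so that the groups did not overlap (log2 fold change -1.21, SE 0.25, adjusted p = 0.00715, edgeR). Ccnd2 was also lower against leukocytes (-1.15). Among the inhibitors, which hold cells out of the cycle, Cdkn2c was higher in both comparisons (4.97 and 4.56), and it was the only one of 7 and of 4 tested to pass, beside 11.9 and 8.55% of all genes called higher.

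Erythroid genes were the second program of these nuclei. None of them was in the rule. Against all other nuclei, 4 of 4 globin genes, 8 of 8 heme synthesis genes, 10 of 12 red cell membrane genes, 8 of 8 erythroid transcription factors and 4 of 7 iron genes were higher, beside the 11.9% of all genes. Against the other leukocytes the counts were 4 of 4, 8 of 8, 12 of 12, 6 of 8 and 3 of 7, beside 8.55%. Other nuclei with erythroid markers were not taken as a comparison set. The leukocytes were chosen by leukocyte genes, a choice that favors higher erythroid levels in the cycling nuclei. The median log2 fold change of the membrane list was 4.94 and 5.48 in these comparisons, and that of the heme list 2.83 and 3.32.

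Slc4a1, the anion exchanger band 3, had 38 UMIs in 10 of 38 adult cycling nuclei, 103 in 21 of 47 in aged replicate 1 and 209 in 36 of 69 in aged replicate 2. These were 251, 336 and 661 CPM, against 1.41, 2.03 and 1.88 in all other nuclei, 4.04, 2.70 and 10.6 in leukocytes and 3.73, 7.22 and 14.4 in free RNA, taken from barcodes with 50 UMIs or fewer. The cycling sums lay above every other set (log2 fold change against all other nuclei 7.39, SE 0.29, adjusted p = 6.23e-138, edgeR). The Rh-associated channel Rhag was higher by 7.56. Add2, an adducin that neurons also make, was the single membrane gene lower against all other nuclei (-1.30) and was higher against leukocytes (2.17).

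Enzymes of heme synthesis and the factors of erythroid transcription rose with the membrane genes. Alas2, the erythroid enzyme that begins heme synthesis, stood at 152, 216 and 342 CPM in the cycling nuclei and at 2.05, 3.24 and 2.55 in all others (log2 fold change 6.08, SE 0.31, adjusted p = 9.20e-85, edgeR). Fech, which inserts iron into heme, was higher by 2.53, and Slc25a37, which carries iron into mitochondria, by 4.45. Klf1, the activator of the adult beta globin gene, stood at 72.6, 58.8 and 123 CPM against 0.466, 0.234 and 0.295 (log2 fold change 7.57). Gata1, the master factor of the lineage, was higher by 6.14, and Tal1, its partner, by 6.22. The transferrin receptor Tfrc, through which erythroblasts take up iron, was higher by 2.38.

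Globin transcripts were also present outside these nuclei. Hbb-bs, an adult beta globin, stood at 1195, 918 and 1402 CPM in the cycling nuclei, at 102, 104 and 48.0 in all others, and at 819, 1022 and 603 in free RNA. The aged replicate 1 level in cycling nuclei thus lay below that of its free RNA, unlike those of Slc4a1 and Alas2. This order depended on the nucleus of 91534 UMIs with macrophage markers, which supplied 29.9% of the UMIs of that cycling sum. The Hbb-bs level without that nucleus is not given here. Within the cycling nuclei, those with erythroid markers alone (defined below) held 2099, 2994 and 3129 CPM of Hbb-bs, and the remaining ones 654, 131 and 258. Every library showed the same order for Hbb-bs, with the first set above free RNA and the second below it. For Hbb-bt and Hba-a1 the remaining adult nuclei lay above free RNA (327 against 178 and 127 against 77.2 CPM).

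Of the late genes that clear organelles and the nucleus, 1 of 5 was higher against all other nuclei and 1 of 4 against leukocytes, beside 11.9 and 8.55% of all genes. It was Trim58, a ubiquitin ligase of late erythroblasts, with only 3, 4 and 7 UMIs in 2, 4 and 6 cycling nuclei. These were 19.8, 13.1 and 22.1 CPM against 1.34, 1.94 and 1.69 in all other nuclei (log2 fold change 3.05, SE 0.82, adjusted p = 0.00107, edgeR).

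**Figure D2:**
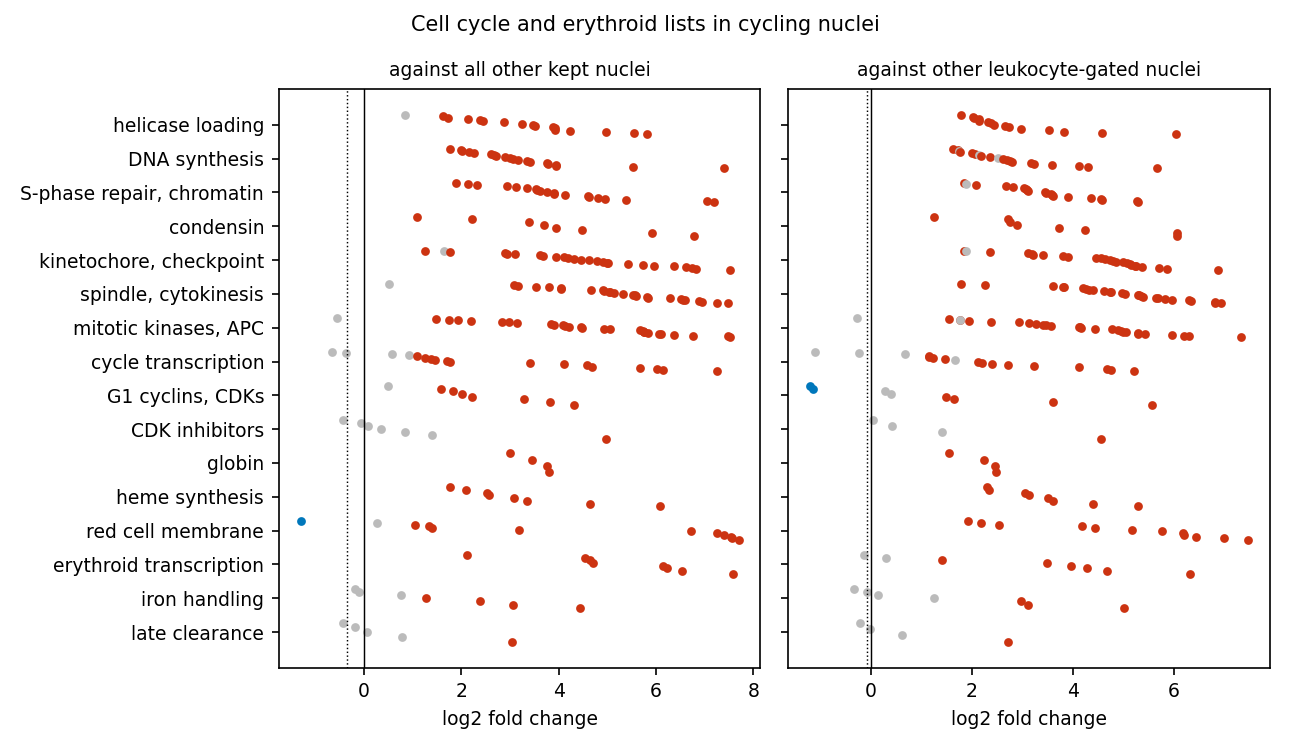
Log2 fold change (x axis) of each gene of the cell cycle and erythroid lists (y axis, 1 point per gene) in cycling nuclei against all other kept nuclei (left) and against other leukocyte-gated nuclei (right). Red points were higher and blue points lower at an adjusted p under 0.05, grey points were not called, and the dotted line is the median of all genes (-0.35 and -0.07). Points of the replication, mitotic, globin and heme lists lie almost wholly to the right.

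Among genes outside the lists, those with the greatest rise against all other nuclei included several known from division or from red cells. Neil3, a glycosylase that repairs DNA crosslinks at replication forks, had 53, 179 and 212 UMIs in cycling nuclei and 68, 77 and 45 in the far larger sets of other nuclei (log2 fold change 8.50, SE 0.30, adjusted p = 9.35e-175, edgeR). Kel, the Kell blood group protein, had 59, 176 and 224 UMIs against 57, 87 and 59 (8.45). In the aged libraries the few cycling nuclei thus held most UMIs of both genes. The erythropoietin receptor Epor, the histone genes H2bc11, H2ac15 and H1f5, and Ankle1, Pimreg, Apol11a and Btnl10 completed the group. Histone genes have near-identical copies, so that their counts are uncertain. The genes of greatest fall had no UMI in any cycling nucleus, and the rule itself left out nuclei rich in neuronal and glial transcripts. Grin3a, a glutamate receptor subunit, was at least 28.1-fold lower (3 counts taken over all cycling nuclei), and the muscarinic receptor Chrm2 and the cadherin Cdh9 were also at 0. Against leukocytes, Kel was the gene of greatest rise, with 3, 2 and 1 UMIs in the leukocytes (8.16). Among the genes of greatest fall against leukocytes, 7 had no UMI in any cycling nucleus. They included Cd5 and Lat of T cells (8, 35 and 22 and 16, 21 and 16 UMIs in the leukocytes), the T cell factor Tbx21 (28, 43 and 12) and the interleukin-5 receptor Il5ra (9, 90 and 21).

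The upstream sequences of 2 erythroid genes and of Cdk1 are given for comparison with those above, since they moved with the rule's genes without being in it. Capitals mark the GATA motif (AGATAA or its reverse complement TTATCT) in Alas2 (chrX:150547217-150547416, plus strand) and Epor (chr9:21963577-21963776, minus strand), and CCAAT and the CHR in Cdk1 (chr10:69352913-69353112, minus strand). Klf1 was searched as well and is not shown, since its window held neither AGATAA nor TTATCT. It did hold TTATCA, and other forms of the GATA motif were not searched.
Alas2: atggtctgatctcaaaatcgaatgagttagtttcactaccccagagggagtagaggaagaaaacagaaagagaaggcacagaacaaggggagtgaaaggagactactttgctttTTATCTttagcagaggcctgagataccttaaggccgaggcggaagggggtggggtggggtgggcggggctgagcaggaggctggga
Epor: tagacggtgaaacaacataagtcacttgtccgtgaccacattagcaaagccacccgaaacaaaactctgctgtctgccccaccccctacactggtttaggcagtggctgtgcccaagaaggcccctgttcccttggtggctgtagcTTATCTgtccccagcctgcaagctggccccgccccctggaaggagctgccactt
Cdk1: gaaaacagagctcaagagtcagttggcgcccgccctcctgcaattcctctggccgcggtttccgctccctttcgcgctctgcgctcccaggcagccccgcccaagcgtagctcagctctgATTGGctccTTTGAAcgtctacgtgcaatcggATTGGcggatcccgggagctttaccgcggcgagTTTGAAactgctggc
The GATA motif began 86 bases before the start of Alas2 and 54 bases before that of Epor. It was in 8 of 34 windows found for erythroid genes (23.5%), in 2 of 76 of the mitotic genes, in 1 of 45 of the replication genes and in 12.7% of all genes. It was also in 1 of the 5 genes of the rule. The CHR was in 6 of the 34 erythroid windows (17.6%), close to the share over all genes, and CCAAT was in 20 of them (58.8%), a share near the 60.0% of the replication genes and above the 41.1% of all genes.

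Single nuclei carried the markers of different blood lineages. A nucleus was counted for a lineage when it held 3 or more UMIs from 2 or more of that lineage's markers. Of 12 erythroid markers, Ank1 and Sptb are also made by neurons, and 12.6% of all other nuclei met the count. With those left out, a choice made after the values were seen, 16 of 38 adult cycling nuclei (42.1%), 26 of 47 (55.3%) and 43 of 69 (62.3%) met it, beside 0.660% of other nuclei. The 10 remaining markers were at 0 or at 10 or more UMIs in most cycling nuclei. They had no UMI in 20, 20 and 23 nuclei and 10 or more in 9, 22 and 34. Between these, 2, 0 and 2 nuclei had 1 or 2 UMIs and 7, 5 and 10 had 3 to 9. The most in 1 nucleus was 36, 58 and 95. In other nuclei they were at 0 in 91.7, 92.0 and 89.7% and at 10 or more UMIs in 0.244, 0.256 and 0.472%. By number, 126 other nuclei met the count with the 10 markers, beside 85 cycling ones, so that erythroid markers were not confined to cycling nuclei.

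**Figure D3:**
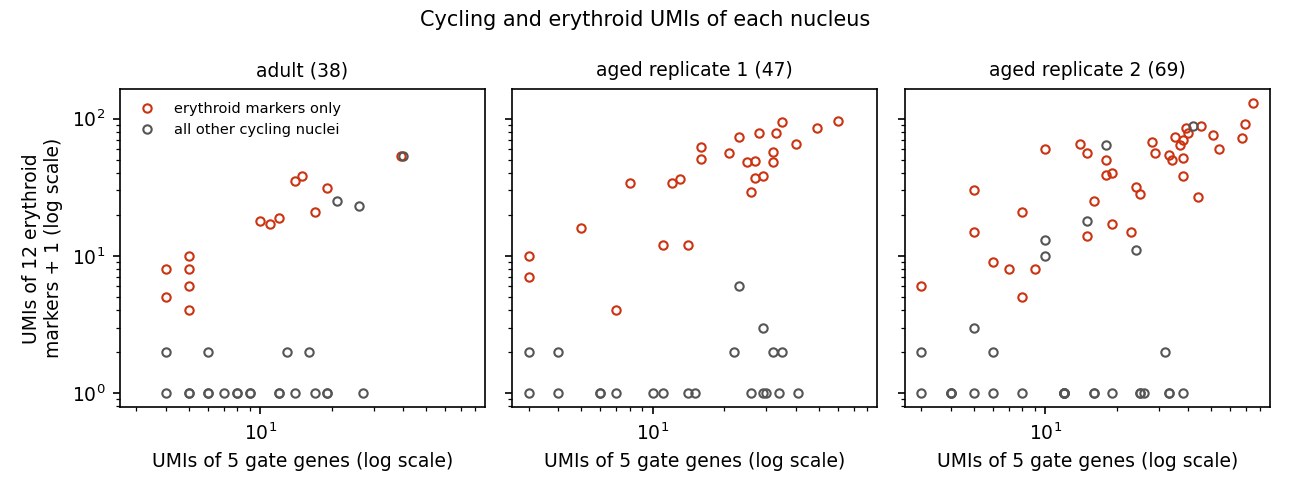
UMIs of the 5 genes of the rule (x axis, log scale) and of 12 erythroid markers plus 1 (y axis, log scale) in each cycling nucleus, 1 panel per library. Red circles are nuclei with erythroid markers alone (14, 26 and 38) and grey circles all others, which lie mostly at the bottom.

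Most of the remaining nuclei carried markers of neutrophils, macrophages or B cells. Neutrophil markers were met in 2, 10 and 11 cycling nuclei (5.26, 21.3 and 15.9%), beside 0.895% of other nuclei. Macrophage markers were met in 4, 8 and 15 (10.5, 17.0 and 21.7%), beside 3.68%. B cell markers were met in 12 adult nuclei (31.6%) and in 2 and 1 aged ones (4.26 and 1.45%), beside 10.0% of other nuclei. T cell markers were met in 2, 0 and 1. Cycling nuclei meeting the megakaryocyte, mast cell or basophil, and mural counts numbered 0, and Pf4 of platelets and Cd3e of T cells had no UMI in any cycling nucleus. When each nucleus was given 1 blood lineage only, a rule also set after the values were seen, 78 of 154 (50.6%) were erythroid, 17 neutrophil, 17 macrophage, 10 B cell and 1 dendritic. A further 16 met more than 1 lineage and 15 met none. The assignment used all 12 erythroid markers, with Ank1 and Sptb. Markers alone means without a second blood lineage, since markers of glia, neurons, vessels and fibroblasts were not weighed. All 6 adult UMIs of the endothelial gene Cdh5, for example, were in 1 nucleus with erythroid markers alone. No doublet caller was run, and the part of doublets in the 16 was not tested.

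**Figure D4:**
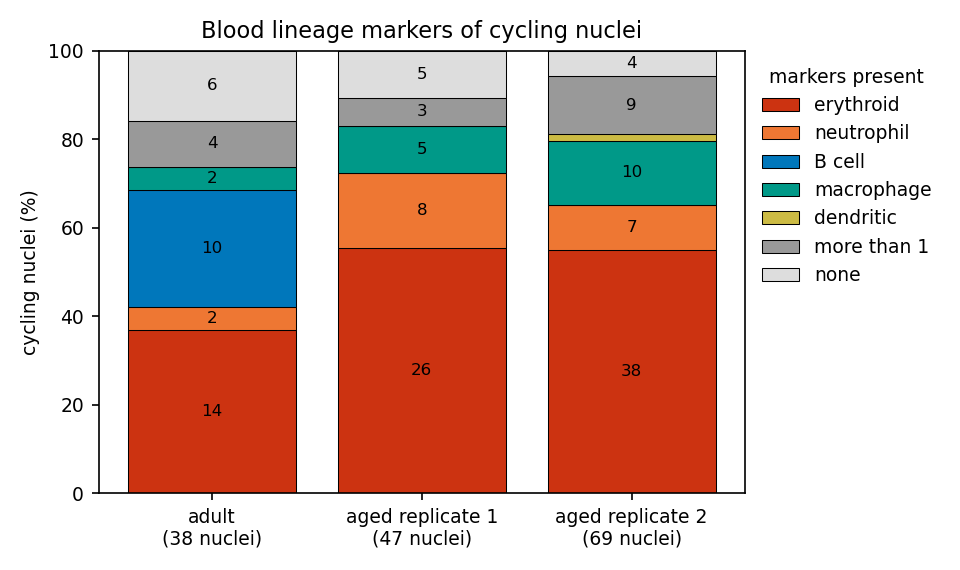
Share of cycling nuclei (%, y axis) by the blood lineage whose markers they held, in each library (x axis), with numbers of nuclei in the bars. Nuclei with erythroid markers alone were 14 of 38, 26 of 47 and 38 of 69, and the 10 nuclei with B cell markers alone were all in the adult library.

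Transcripts of other DRG cells were also present. Glial markers were met by 28.6% of cycling nuclei and 82.1% of others, and neuronal markers by 48.1 and 79.6%, a direction that the rule favors. All 8 neuronal markers tested were lower against all other nuclei and 5 of 13 glial markers were, beside 17.9% of all genes. In the cycling sums the 13 glial markers stood at 2239, 1983 and 1003 CPM and in free RNA at 4338, 3266 and 2440. Glial levels were thus highest in the adult library and lowest in aged replicate 2 in both, and their part in the results by age was not tested. Endothelial markers were met in 7 cycling nuclei and fibroblast markers in 21, shares below those of the other nuclei (4.55 against 8.12% and 13.6 against 20.5%). By gene, 1 of 8 endothelial markers (Pecam1, log2 fold change 0.86) and 3 of 7 fibroblast markers, the collagens Col1a1 (1.27), Col1a2 (1.42) and Col3a1 (1.75), were higher against all other nuclei, beside 11.9% of all genes, and none was lower. Of the Col3a1 UMIs in aged replicate 1, 94.7% were in 1 nucleus with macrophage markers. Col3a1 was not called with the nucleus of most UMIs left out of each library (0.38, adjusted p = 0.523, edgeR), and neither Col3a1 (0.62, adjusted p = 0.430, edgeR) nor Col1a1 (0.75, adjusted p = 0.291, edgeR) was called without aged replicate 1. Markers of stem and progenitor cells were met in 23 (14.9%), beside 14.3% of other nuclei, and 2 of 8 such genes, Spi1 and Cd48, were higher against all other nuclei, beside 11.9% of all genes.

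Neutrophil granule genes were higher in the cycling nuclei. Fcnb, a ficolin of immature granulocytes, stood at 33.0, 39.2 and 53.8 CPM and at 0.178, 0.234 and 0.616 in all other nuclei (log2 fold change 6.66, SE 0.83, adjusted p = 2.85e-14, edgeR). In the adult library 2 of 38 cycling nuclei had neutrophil markers alone, and 6 of the 15 neutrophil markers had no UMI in its cycling nuclei. The granule proteins Camp, Ngp and Ltf were higher by 5.78, 5.64 and 5.41, and 13 of 14 neutrophil genes tested were higher, beside 11.9% of all genes. Against leukocytes 6 of 9 were, beside 8.55%. All cycling sums of these 4 genes lay above those of the other nuclei. The calprotectin subunit S100a9 had 29, 104 and 171 UMIs among the 151431, 306165 and 316083 UMIs of the cycling sums. As a share of UMIs, each cycling sum lay above the free RNA of its library, where S100a9 stood at 17.6, 62.6 and 223 CPM.

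Macrophage genes were higher than in all other nuclei (9 of 10, beside 11.9% of all genes) and lower than in the other leukocytes (7 of 10, beside 7.49%), where macrophages are frequent. The transglutaminase F13a1 stood at 383, 105 and 807 CPM against 9.19, 12.7 and 16.6 (log2 fold change 4.40). All 10 macrophage markers summed to 482, 591 and 1199 CPM, so F13a1 made up most of the adult and aged replicate 2 sums. The complement gene C1qa was found in 0, 7 and 7 cycling nuclei. The mannose receptor Mrc1 stood at 13.2, 58.8 and 50.6 in cycling nuclei and at 133, 288 and 251 in leukocytes (-2.46, SE 0.29, adjusted p = 1.51e-04, edgeR), with no overlap. T cell genes were lower than in leukocytes in 6 of 6 tested and B cell genes in 5 of 8, beside 7.49% of all genes. The choice of that set by leukocyte genes favors this direction for macrophage, T cell and B cell genes. Against all other nuclei, 4 of 8 B cell genes were higher (Pax5, Cd79b, Blnk and Bank1), beside 11.9% of all genes, and Ebf1 was lower. Of these, Pax5 turned to -1.66 by DESeq2, and Bank1 to -0.23 without the adult library.

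To examine how cycling nuclei differed between ages, their sums in the adult library were compared with those in the aged libraries. Only the spread between the aged libraries gave a residual degree of freedom (1), which stands in for that of the adult library too. Of 8424 genes tested, 1.46% were called, 35 higher (0.415%) and 88 lower (1.04%) in aged cycling nuclei. By DESeq2 the counts were 0 and 13, with 153 genes at an unadjusted p under 0.05. Without the filter on low counts no gene was called by edgeR, and 707 had an unadjusted p under 0.05. A change in such a sum can come from another mix of lineages or from another level within a lineage, which these fits did not separate. Calls by age rest on few nuclei, and the number of nuclei with a UMI is given for some of the named genes only.

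None of the replication, mitotic or erythroid genes was called by age. The median log2 fold changes of the lists were 0.05 to 0.96 for the cell cycle and 0.21 to 1.13 for the erythroid genes, beside 0.06 over all genes. The values were 0.92 for Slc4a1 (SE 0.43, adjusted p = 0.427, edgeR) and 1.18 for Ank1 (SE 0.41, adjusted p = 0.147). A p above the threshold does not show that the levels were alike.

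Of 4 B cell markers tested, 3 were lower in the aged cycling nuclei (Pax5, Ebf1 and Bank1), beside 1.04% of all genes. Pax5, the factor that commits cells to the B lineage, had 48 UMIs in 10 of 38 adult cycling nuclei (26.3%, exact 95% interval 13.4 to 43.1%) and none in 47 and 69 aged ones. The aged zeros allow a share of nuclei with a UMI of up to 6.38 and 4.35% (3 counts of the total), and their exact intervals end at 7.55 and 5.21%. Neither limits the share of nuclei that express the gene unseen. The level was at least 65.7-fold lower (3 counts taken over both aged libraries, adjusted p = 4.11e-19, edgeR). Pax5 was present in the other leukocytes of every library, at 378, 130 and 115 CPM. Cd79a, of the B cell receptor, was found in 5, 0 and 0 cycling nuclei. Ebf1, which acts with Pax5, had 322, 18 and 58 UMIs (log2 fold change -4.19, SE 0.39, adjusted p = 1.58e-23, edgeR), and it was found in most nuclei of the ganglion of any kind. Bank1, a B cell adaptor, had 38, 8 and 4 UMIs (-3.73), Bach2, a repressor of plasma cell fate, 308, 45 and 50 (-3.80), and Ikzf3 31, 0 and 3 (-5.34). For each of these genes the adult library lay above both aged ones. A few UMIs of precursor genes (Dntt 3, Igll1 2, Rag1 1 and Vpreb1 1) were in adult cycling nuclei only, too few to compare. With nuclei of over 2000 genes alone, Ebf1 (-1.10) and Bach2 (-1.04) were no longer called.

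Of the macrophage markers 1 of 9 tested, Ms4a7, was higher in the aged cycling nuclei, and of the neutrophil markers 1 of 9, Mpo, beside 0.415% of all genes. Gpnmb, a lysosomal glycoprotein of lipid-laden macrophages, had 0 UMIs in the adult cycling nuclei, 75 in 9 nuclei of aged replicate 1 and 83 in 11 of aged replicate 2. It was at least 12.8-fold higher (3 counts in the adult library, adjusted p = 3.56e-08, edgeR). In all other nuclei Gpnmb stood at 8.10, 56.3 and 56.1 CPM, and the age difference of cycling nuclei did not pass the test against that of the others (adjusted p = 0.258, edgeR). Ms4a7 had 0, 21 and 33 UMIs and was at least 4.37-fold higher. It was also higher with age outside the cycling nuclei, at 86.9, 392 and 367 CPM in the other leukocytes. A UMI of Ms4a7 was found in 0.697, 4.39 and 5.90% of all other nuclei. The growth factor Igf1 had 0, 20 and 26 UMIs in the cycling nuclei and was at least 3.72-fold higher. Atp6v0d2, a proton pump subunit, had 0, 30 and 26 (at least 4.55-fold higher). In each case both aged libraries lay above the adult one, which had 2 nuclei with macrophage markers alone beside 5 and 10 in the aged libraries. In DESeq2 the adjusted p of Gpnmb was 0.0873.

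Several calls by age came wholly or in part from 1 nucleus of a library. Spp1, or osteopontin, was lower (129, 32 and 12 UMIs, log2 fold change -3.64), but all 129 adult UMIs were in 1 nucleus, and with a minimum of 5 UMIs of the rule's genes, which left that nucleus out, the value turned to 6.81. Of the extracellular matrix gene Tnc (0, 94 and 49 UMIs), 86.2 and 91.8% were in 1 nucleus of each aged library. All 44 UMIs of Fgl2 were in 1 nucleus of aged replicate 1. Mpo, the myeloperoxidase of early granulocytes, had 0, 49 and 2 UMIs, of which 53.1% of those in aged replicate 1 were in 1 nucleus. Col1a2 had 17, 186 and 71 UMIs, with 58.1% of those of aged replicate 1 in 1 nucleus with macrophage markers. With the nucleus of most UMIs over all genes left out of each library, 114 genes were higher and 248 lower by age. Of the 29 named genes 27 then kept their call and 0 were weaker or reversed, and the rest had no result in that fit.

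A further group of calls moved in the same way in the other nuclei of the libraries. Bc1, a noncoding RNA of neurons, stood at 297, 6.53 and 6.33 CPM in cycling nuclei (log2 fold change -5.49) and at 585, 11.4 and 6.14 in all others. Mylk stood at 687, 49.0 and 66.4 (-3.63) and at 678, 73.6 and 65.7. Fabp7, of satellite glia, stood at 211, 26.1 and 28.5 (-3.00) and at 92.0, 35.4 and 19.5. The test of the difference from the other nuclei gave an adjusted p of 1 for all 3 (edgeR).

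Whether an age difference in cycling nuclei differed from that in all other nuclei of the same libraries was tested as an interaction. Of 20735 genes, 0.198% were called, 11 upward (0.0531%) and 30 downward (0.145%). The erythroid gene Hemgn was among the former. It had 26, 94 and 145 UMIs in the cycling nuclei, or 172, 307 and 459 CPM, and stood at 13.6, 4.19 and 4.66 in the others (interaction 2.94 on the log2 scale, SE 0.50, adjusted p = 1.03e-05, edgeR). Its levels thus lay in opposite order by age in the 2 sets of nuclei. Tspan33, a tetraspanin of erythroblasts and B cells, had 26, 94 and 191 UMIs, or 172, 307 and 604 CPM, and stood at 29.7, 3.17 and 3.16 in the others (4.75, SE 0.49, adjusted p = 5.33e-18, edgeR). Both were found in many cycling nuclei, with at most 19.2% of their UMIs in 1 nucleus of a library. Hemgn and Tspan33 were also called by DESeq2. Pax5, Ebf1 and Bank1 differed downward. In the other nuclei Pax5 stood at 8.53, 5.04 and 4.80 CPM, also lower in both aged libraries but by less.

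**Figure D5:**
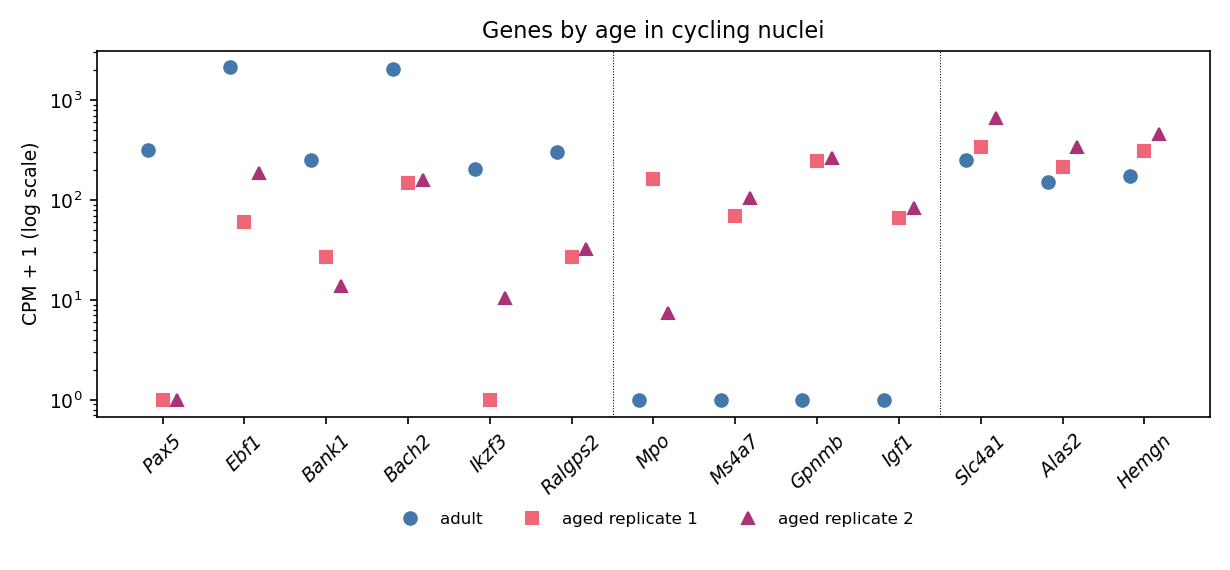
Level of 13 genes (x axis) in the summed cycling nuclei of each library (CPM + 1, y axis, log scale), with dotted lines between B-lineage, myeloid and erythroid genes. The adult library (circles) lies above both aged libraries for Pax5, Ebf1, Bank1, Bach2, Ikzf3 and Ralgps2, and at 0 for Mpo, Ms4a7, Gpnmb and Igf1.

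In nuclei with erythroid markers alone, the share of cycle transcripts was higher in the aged libraries, by an amount that depended on a few deep adult nuclei. Per 10000 UMIs, replication lists took 55.7 in the 14 adult nuclei, 139 in the 26 of aged replicate 1 and 128 in the 38 of aged replicate 2. Mitotic lists took 97.4, 268 and 285, a ratio of 2.84 between the aged mean and the adult value. Both aged libraries lay above the adult one (exact permutation p = 0.333, two-sided, the smallest that 3 libraries allow). The 10 erythroid markers took 30.0, 86.7 and 85.1. These 10 are among the markers by which the nuclei were chosen, so their values are no separate age difference. The glial and neuronal markers took 43.4 in the adult nuclei and 17.7 ± 4.23 (SD, n = 2) in the aged ones. Their part in the differences above was not tested. With the deepest nucleus of each library left out, the mitotic values were 119, 284 and 289. The adult value rested in large part on 4 nuclei of over 6000 UMIs (6768, 7513, 6614 and 15843). These held 11, 9, 17 and 61 UMIs of the replication lists and 4, 16, 18 and 17 of the 12 erythroid markers. The adult replication and erythroid values above thus carry the same limit, and they are not given here without these nuclei. With nuclei of over 6000 UMIs left out (4, 2 and 4), the mitotic values were 196, 285 and 302, a ratio of 1.49, and the glial and neuronal markers took 22.6, 24.0 and 15.3. As a median over all nuclei with erythroid markers alone, the mitotic lists took 125, 268 and 315 per 10000 UMIs. In the remaining cycling nuclei the mitotic lists took 144, 98.7 and 130 of the summed UMIs. These values rest on the nucleus of 91534 UMIs in aged replicate 1, and with the deepest nucleus of each library left out they were 156, 157 and 141.

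The share of erythroid nuclei among the cycling ones was 16.7 percentage points higher in the aged than in the adult libraries by the 10 markers (exact permutation p = 0.333, two-sided, the smallest possible). With nuclei of over 2000 genes alone, 13, 23 and 31 cycling nuclei remained and the difference was -4.01 points. The difference was 13.3 points for the neutrophil markers and -28.7 points for the B cell markers (adult 31.6%, aged mean 2.85% ± 1.98, SD, n = 2). The adult value lay outside the aged range in both, with the same exact p.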

How the data were processed

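Nuclear RNA of mouse lumbar DRG was captured with PIP-seq, in which particles barcode single nuclei, in 1 adult and 2 aged libraries. Read alignment and counting were done by the authors with Pipseeker, and the deposited matrices give, unnormalized, the UMI count of each gene in each barcode. The build is mm10 per the labels, and the annotation and use of strand are not given in the sources used here, so that a gene and an overlapping antisense gene may share counts. The matrices were not filtered on barcodes, and those with more than 1000 genes were kept. No doublet caller was run.

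Nuclei are not replicates, so UMI counts were summed per library and set. Sums were tested with edgeR 4.0.16 (quasi-likelihood test, TMM factors, filterByExpr, prior count 0.125) under R 4.3.3, with the library as a block where 2 sets were compared and an adjusted p (Benjamini-Hochberg) under 0.05 was called. The rule's 9 genes were left out of the comparisons of sets, as were the leukocyte gate genes where leukocytes were compared. Shares have exact Clopper-Pearson 95% intervals (scipy 1.17.1) and were compared by exact permutation of the 3 library labels. Intervals and floors (3 counts) cover counting error only. The study calls the libraries biological replicates without giving the mice in each. The edgeR p-values rest on a spread between libraries that was estimated with information shared across genes. In the fits by age that spread came from the aged libraries alone, and the spread of the adult group was not measured. Free RNA was the sum of barcodes with 50 UMIs or fewer. Upstream sequences came from RefSeq (GRCm38.p6). They were found for 45 of 57 replication, 76 of 89 mitotic and 34 of 46 erythroid genes.

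The cycling nuclei and the gene lists were chosen with earlier results of these data known. Named genes were, per list, up to 4 of greatest absolute log2 fold change past the threshold with 20 or more UMIs in cycling nuclei, and defining markers, and outside the lists the 10 of greatest change in each direction with 20 or more UMIs over all sums compared and no Gm or Rik name. Some genes that this rule names are not reported here. The erythroid list without Ank1 and Sptb, the assignment of each nucleus to 1 lineage and the values without the deepest nuclei were added after the values were seen, and Tk1, Fech, Gata1, Tal1, Tfrc, Trim58, Pecam1, Ddx3y, Bc1, Mylk and the B cell precursor genes are named for their role or their level in other nuclei. Alternatives were DESeq2 1.42.0, no TMM factor, no filter on low counts, no block, other minima of the rule (2 or 5 UMIs, 2000 genes), erythroid-marker nuclei left out, and each library left out. The animal section of the study's methods gives aged mice as female and adult mice as of both sexes, its explant section gives both sexes at either age, and the labels give male.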

Additional observations from a re-analysis of the deposited data

Results flagged for a closer look

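The named genes whose age difference in cycling nuclei differed from that in all other nuclei (edgeR interaction test) numbered 25, with 11 values above 0 and 14 below. Values are on the log2 scale. Those of Tnc (14.49), Arhgap22 (13.62) and Pax5 (-14.84) rest on libraries at 0 and on the prior count, and are no bounds.

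Tspan33 differed by 4.75 and Hemgn by 2.94 over all cycling nuclei, and neither was tested within erythroid nuclei. The nucleus of most UMIs of either gene in each aged library had erythroid markers alone. With nuclei of over 2000 genes alone, Hemgn was no longer called (2.52, adjusted p = 0.161, edgeR). Slc6a20a (2.14) and the noncoding RNA Lockd (2.15), from the locus of the cell cycle inhibitor Cdkn1b, were spread over many nuclei, Lockd over 22, 30 and 50. Fmn1 differed by 2.78, Slc22a23 by 1.90, Tenm3 by 1.68, Pde4d by 1.58 and Col1a2 by 2.17. Of the Tenm3 UMIs in aged replicate 1, 68.6% were in 1 nucleus.

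Downward values were found for Ebf1 (-3.86), Bank1 (-3.32), Ikzf3 (-4.90), Bach2it1 (-5.49), Lef1 (-4.42) and Igkc (-4.74), which are known from lymphocytes. Igkc had 21, 2 and 10 UMIs, with 71.4% of the adult ones in 1 nucleus, and it stood at 4.16, 17.7 and 16.8 CPM in all other nuclei. The remaining ones were Spp1 (-4.76), Jakmip1 (-4.56), Lrrtm3 (-4.52), Ppp1r16b (-4.00), Tmem108 (-3.99), Matn4 (-3.94) and Flt1 (-3.75). Lrrtm3 had 10, 0 and 2 UMIs and Jakmip1 11, 1 and 1.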

How the results depend on the processing

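No paired analysis was possible because the groups share fewer than 2 replicate numbers. Genes called against all other nuclei numbered 5766, and 3620 to 5316 with 1 library left out (3620 without aged replicate 2). Against leukocytes 1793 were called, with 577 in nuclei of over 2000 genes, 1100 by DESeq2, 380 without erythroid-marker nuclei and 831 without the library block. With 1 library left out the range was 392 (without aged replicate 1) to 2857 (without the adult library), and 540 without aged replicate 2. By age 123 genes were called, with 72 in nuclei of over 2000 genes, 13 by DESeq2, 0 without the filter, 31 without erythroid-marker nuclei and 362 without the nucleus of most UMIs in each library. For the age difference against other nuclei 41 were called, with 25 in nuclei of over 2000 genes, 11 by DESeq2, 62 without TMM factors and 118 without the nucleus of most UMIs. The cause of these shifts was not tested. Leaving out an aged library left no residual degree of freedom in the fits by age, so only fold changes were had, and all named genes with more than 3 UMIs kept their direction. Leaving out the adult library leaves no comparison of ages. The erythroid share turned to -2.40 points (-4.01 with 10 markers) in nuclei of over 2000 genes. Spp1 turned by age to 6.81 with a minimum of 5 UMIs and to 6.61 in nuclei of over 2000 genes, and in the interaction to 12.20 and 11.95. Against all other nuclei Pax5 turned from 2.25 to -1.66 by DESeq2, and Bank1 from 1.22 to -0.23 without the adult library (range to 1.80). DESeq2 kept the call of 102 of 104 named genes against all other nuclei, 78 of 83 against leukocytes, 6 of 12 by age (17 had no adjusted p) and 6 of 25 in the interaction. Without TMM factors the median over all genes against other nuclei moved from -0.35 to 0.03. No value was given for 144, 91 and 4 pairs of gene and setting (all other nuclei, leukocytes, interaction) with 3 or fewer UMIs in cycling nuclei or with erythroid genes after removal of those nuclei. With 3 libraries no exact p falls below 0.333, whatever the depth, and genes with few UMIs over the 154 nuclei could not be compared.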
